A study of Homo sapiens with 6 samples.

Results

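The insulin-like growth factor binding proteins are a family of 7 human genes, IGFBP1 to IGFBP7, taken here by symbol from the 58381 genes of the deposited count files. All 7 had enough reads to be tested, among 23160 tested genes. The 6 libraries are polyadenylated RNA from 786-0 cells, a human clear cell renal cell carcinoma line, and every library including the controls carries the genotype label SETD2 KO. SETD2 is the methyltransferase that places trimethyl marks on lysine 36 of histone H3. One group of 2 libraries received the solvent DMSO, another 2 received 100 nM decitabine and another 2 received 300 nM decitabine. Decitabine is a deoxycytidine analogue that traps DNA methyltransferases and lowers DNA methylation as cells divide. Per the labels, the drug or DMSO was given every day for 3 days, the medium was replaced on day 4 and cells were collected on day 5. The labels do not say whether the knockout line is 1 clone, nor whether replicate libraries stem from independent cultures. The p-values therefore describe the scatter among these 6 libraries, part of which may be technical. HKC cells, and 786-0 cells with intact SETD2, are not analysed here.

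Insulin-like growth factors (IGF1 and IGF2) act through the receptor tyrosine kinase IGF1R. Most of these growth factors outside cells are held by binding proteins, which lengthen their life in the circulation and can either keep them from the receptor or release them near it when proteases cut the binding protein. IGFBP1 to IGFBP6 bind the growth factors tightly, whereas IGFBP7 binds them weakly, and several members also act on cells through integrins or other surface partners. The kidney makes several of these proteins, and IGFBP3 is known for high expression in clear cell renal carcinoma.

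RefSeq promoter windows (GRCh38.p14) were at hand for 5 of the 7 members. They are shown because the drug acts on methylated cytosine in CpG context, although DNA methylation was not measured in these libraries. Each line gives the 250 bases upstream of the annotated start, from 5′ to 3′ on the gene's own strand, with the bases of every CpG in capitals. The windows of IGFBP3 at chr7:45921273-45921522 (minus strand) and IGFBP4 at chr17:40443200-40443449 (plus strand) are rich in CpG. Those of IGFBP5 at chr2:216695550-216695799 (minus strand) and IGFBP6 at chr12:53097417-53097666 (plus strand) hold fewer CpG sites. The starts are those of RefSeq, and the gene models used for counting begin farther upstream for IGFBP3 and IGFBP6, so that the IGFBP3 window and most of the IGFBP6 window lie inside those models.
IGFBP3: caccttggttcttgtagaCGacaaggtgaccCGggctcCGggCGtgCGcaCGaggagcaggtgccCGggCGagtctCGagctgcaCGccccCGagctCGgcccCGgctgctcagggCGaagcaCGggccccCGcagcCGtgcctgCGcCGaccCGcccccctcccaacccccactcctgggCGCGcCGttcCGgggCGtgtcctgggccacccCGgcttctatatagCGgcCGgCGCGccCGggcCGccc
IGFBP4: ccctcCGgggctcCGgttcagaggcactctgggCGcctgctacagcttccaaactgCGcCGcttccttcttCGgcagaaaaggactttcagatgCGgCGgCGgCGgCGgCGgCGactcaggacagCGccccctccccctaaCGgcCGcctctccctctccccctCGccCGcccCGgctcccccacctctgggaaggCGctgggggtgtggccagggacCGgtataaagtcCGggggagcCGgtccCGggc
IGFBP5: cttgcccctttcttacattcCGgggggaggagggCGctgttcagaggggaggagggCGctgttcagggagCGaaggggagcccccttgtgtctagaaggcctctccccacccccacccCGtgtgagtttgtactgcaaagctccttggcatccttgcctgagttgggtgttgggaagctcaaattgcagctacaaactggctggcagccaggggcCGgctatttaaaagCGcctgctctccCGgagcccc
IGFBP6: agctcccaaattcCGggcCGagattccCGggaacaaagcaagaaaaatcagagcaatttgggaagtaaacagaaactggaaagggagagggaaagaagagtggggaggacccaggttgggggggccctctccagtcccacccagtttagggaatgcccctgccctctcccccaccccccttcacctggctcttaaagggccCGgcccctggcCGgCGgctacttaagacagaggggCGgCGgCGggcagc

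The IGFBP3 window holds 32 CpG sites, more than 90.5% of 35116 RefSeq windows of the same length, whose median is 11. IGFBP4 holds 24, more than 76.3% of windows. IGFBP5 holds 8 and IGFBP6 holds 9, both a little under the median and more than 43.7% and 45.9% of windows. IGFBP2 has 3 annotated starts, with 7, 22 and 4 CpG sites. The windows were also searched on both strands for 3 motifs. The motif GGGCGG, which contains a CpG, occurs in 42.6% of all windows and is present upstream of IGFBP3, IGFBP4, IGFBP6 and the first 2 starts of IGFBP2. The motif TATAAA is in 10.7% of all windows and, among these members, upstream of IGFBP4 alone. The motif ACGTG is in 18.5% of all windows and in none of these. Among the shown windows, the CpG-rich ones belong to IGFBP3, which fell, and to IGFBP4, which rose most. The windows of IGFBP5 and IGFBP6, which rose, are closer to the median. A relation between CpG content and response was not tested.

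Between 89159112 and 96646427 reads were assigned to genes per library. Where a gene had 0 reads, its level could still be up to 3 reads, which is 0.031 to 0.0336 CPM, by counting error of independent reads only. Among low non-zero counts, 70.0% to 74.4% per library were even, so reads often came in pairs. Limits from counting error are therefore too narrow here. Levels are CPM, read counts relative to library size, with library sizes scaled by the trimmed mean of M-values (TMM). Fold changes and adjusted p-values come from the quasi-likelihood test of edgeR, adjusted by Benjamini and Hochberg's method over all tested genes. SETD2 itself was read at 77.9 and 81.2 CPM with DMSO, 39.8 and 49.1 CPM at 100 nM, and 16.4 and 21.7 CPM at 300 nM. Its log2 fold changes were -0.84 and -2.06 with TMM scaling, and -0.28 and -0.82 with a correction for exon length and GC content. A count over the whole gene does not show an edit of the knockout kind, so these values do not check the genotype label. Of the 9 fixed markers listed for 786-0 cells, all but CA9 had reads with DMSO, and PAX8, PAX2 and CDH6 were lower at both doses. In bulk RNA, fewer cells of a type and less RNA per cell cannot be told apart.

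At 100 nM, 5 of the 7 members were higher than with DMSO and 1 was lower, beside 24.0% of all tested genes higher and 18.7% lower (42.7% in either direction). At 300 nM, 6 were higher and 1 was lower, beside 34.8% higher and 31.1% lower (65.9% in either direction). From 100 to 300 nM, 6 were higher and none lower, beside 20.0% and 23.4% (43.4% in either direction). All 7 had a log2 fold change above 0 in edgeR and DESeq2 without a correction for exon length and GC content. With that correction IGFBP6 was at -0.25 and IGFBP7 at -0.13. The median log2 fold change of the members was 1.36 at 100 nM, 2.54 at 300 nM and 0.77 between the doses, where the medians of all tested genes were 0.03, 0.05 and -0.04. IGFBP4, IGFBP6 and IGFBP1 moved most among the members with over 1 CPM, IGFBP7 moved less, and IGFBP3 fell and then partly returned.

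IGFBP4, which binds both IGF1 and IGF2 and is the main substrate of the protease PAPPA, spans chr17:40443461-40457731 on the plus strand of GRCh38 (ENSG00000141753.6). With DMSO it had 24 and 20 reads, or 0.250 and 0.213 CPM. It reached 13.8 and 12.1 CPM at 100 nM and 120.2 and 90.5 CPM at 300 nM. The 3 groups were far apart, and at 300 nM the libraries differed from each other more than at the other doses. IGFBP4 was 55.8-fold higher at 100 nM (log2 fold change 5.80, SE 0.21, adjusted p = 9.7e-13) and 452.4-fold higher at 300 nM (8.82, SE 0.22, adjusted p = 5.0e-15). The step from 100 to 300 nM was a further 8.11-fold (3.02, SE 0.15, adjusted p = 4.0e-09). These folds rest on 44 reads in the DMSO libraries together, where the 95% interval for counting error alone runs from 0.172 to 0.317 CPM before TMM scaling. That interval treats reads as independent and is too narrow where reads come in pairs. By log2 fold change IGFBP4 ranked 753 of 23160 genes at 100 nM and 229 at 300 nM.

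IGFBP6, which prefers IGF2 to IGF1, spans chr12:53097436-53102345 on the plus strand (ENSG00000167779.7). It was at 67.0 and 59.2 CPM with DMSO, 286.5 and 253.5 CPM at 100 nM, and 400.1 and 335.3 CPM at 300 nM. No groups overlapped. The rise was 4.28-fold at 100 nM (log2 fold change 2.10, SE 0.12, adjusted p = 2.1e-10) and 5.83-fold at 300 nM (2.54, SE 0.12, adjusted p = 9.9e-12). The step between the doses was 1.36-fold (0.45, SE 0.11, adjusted p = 0.0040). Without the second 100 nM library that step was 0.35 on the log2 scale with an adjusted p of 0.068. With a correction for exon length and GC content the rises were 1.12 and 0.87 on the log2 scale, and the step turned to -0.25 (adjusted p = 0.0031).

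IGFBP1, a liver and decidual protein that responds to insulin and to hypoxia, spans chr7:45888357-45893668 on the plus strand (ENSG00000146678.9). It was at 7.74 and 6.66 CPM with DMSO, 20.0 and 21.0 CPM at 100 nM, and 57.0 and 58.0 CPM at 300 nM. Libraries of a group lay close together and no groups overlapped. IGFBP1 was 2.85-fold higher at 100 nM (log2 fold change 1.51, SE 0.13, adjusted p = 4.6e-08) and 7.98-fold higher at 300 nM (2.997, SE 0.13, adjusted p = 5.1e-12). The step between the doses was 2.80-fold (1.49, SE 0.12, adjusted p = 1.4e-07), so its log2 change at 100 nM was 50.4% of that at 300 nM. With TMM scaling the same share was 65.8% for IGFBP4, 82.5% for IGFBP6 and 70.3% for IGFBP7.

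IGFBP7, a secreted protein of vessel walls and stroma that binds these growth factors weakly, spans chr4:57030773-57110385 on the minus strand (ENSG00000163453.11). It was at 235.8 and 233.1 CPM with DMSO, 365.7 and 346.5 CPM at 100 nM, and 447.0 and 402.5 CPM at 300 nM. The groups did not overlap, and the changes were small beside those of the members above. IGFBP7 was 1.52-fold higher at 100 nM (log2 fold change 0.60, SE 0.10, adjusted p = 7.7e-05) and 1.81-fold higher at 300 nM (0.86, SE 0.10, adjusted p = 6.5e-07). With a correction for exon length and GC content neither passed, at 0.11 (adjusted p = 0.098) and -0.02 (adjusted p = 0.79). The step between the doses was 1.19-fold (0.25, SE 0.10, adjusted p = 0.042), and 9 of 14 alternatives ended this call. They were the correction with and without a replicate block (-0.13), no low-count filter (0.25), a fit of only the 2 groups (0.24), and leaving out either DMSO library (0.25 in each case), either 100 nM library (0.27 and 0.21) or the first 300 nM library (0.18). Exon bases shared with other genes made up 18.9% of its exon length, mainly with POLR2B on the opposite strand, and reads there were left uncounted because the counting used no strand and no option for overlaps.

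IGFBP3, the most abundant carrier of these growth factors in blood, spans chr7:45912245-45921874 on the minus strand (ENSG00000146674.14) and was the 1 member that fell. It was at 741.8 and 730.8 CPM with DMSO, 476.1 and 525.5 CPM at 100 nM, and 638.7 and 620.4 CPM at 300 nM. The groups did not overlap, and the middle dose was the lowest. IGFBP3 was 0.680 times the DMSO level at 100 nM (log2 fold change -0.56, SE 0.09, adjusted p = 1.3e-04) and 0.855 times at 300 nM (-0.23, SE 0.09, adjusted p = 0.043). It was 1.26-fold higher at 300 nM than at 100 nM (0.33, SE 0.09, adjusted p = 0.0089), and without the first 100 nM library this was 0.24 with an adjusted p of 0.17. The decrease at 300 nM stood at the threshold. Its adjusted p was 0.21 without the first DMSO library, 0.17 without the second, 0.067 without the first 100 nM library and 0.068 without the second, with values from -0.24 to -0.22.

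IGFBP5 and IGFBP2 were the lowest members in every group per kb of exon. IGFBP5, which binds extracellular matrix and bone mineral, spans chr2:216672105-216695525 on the minus strand (ENSG00000115461.4). Its reads were 24 and 33 under DMSO, 77 and 70 under 100 nM, and 119 and 113 under 300 nM, or means of 0.300 ± 0.0717, 0.771 ± 0.0192 and 1.32 ± 0.173 CPM (SD, n = 2). The groups did not overlap. The rise had a log2 fold change of 1.36 at 100 nM (SE 0.35, adjusted p = 0.0047) and 2.13 at 300 nM (SE 0.35, adjusted p = 4.1e-05), and the step of 0.77 between the doses did not pass (adjusted p = 0.061).

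IGFBP2, a binding protein that prefers IGF2 and is common in fetal tissue and cerebrospinal fluid, spans chr2:216632828-216664436 on the plus strand (ENSG00000115457.9). Its reads were 12 and 4 under DMSO, 6 and 10 under 100 nM, and 62 and 48 under 300 nM. The DMSO and 100 nM libraries overlapped, and both 300 nM libraries lay above them. The log2 fold change was 0.01 at 100 nM (SE 0.75, adjusted p = 0.997), where a change was not detectable at this depth, and 2.88 at 300 nM (SE 0.66, adjusted p = 9.8e-04). Against 100 nM the 300 nM value was 2.87 (SE 0.66, adjusted p = 0.0019).

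**Figure D1:**
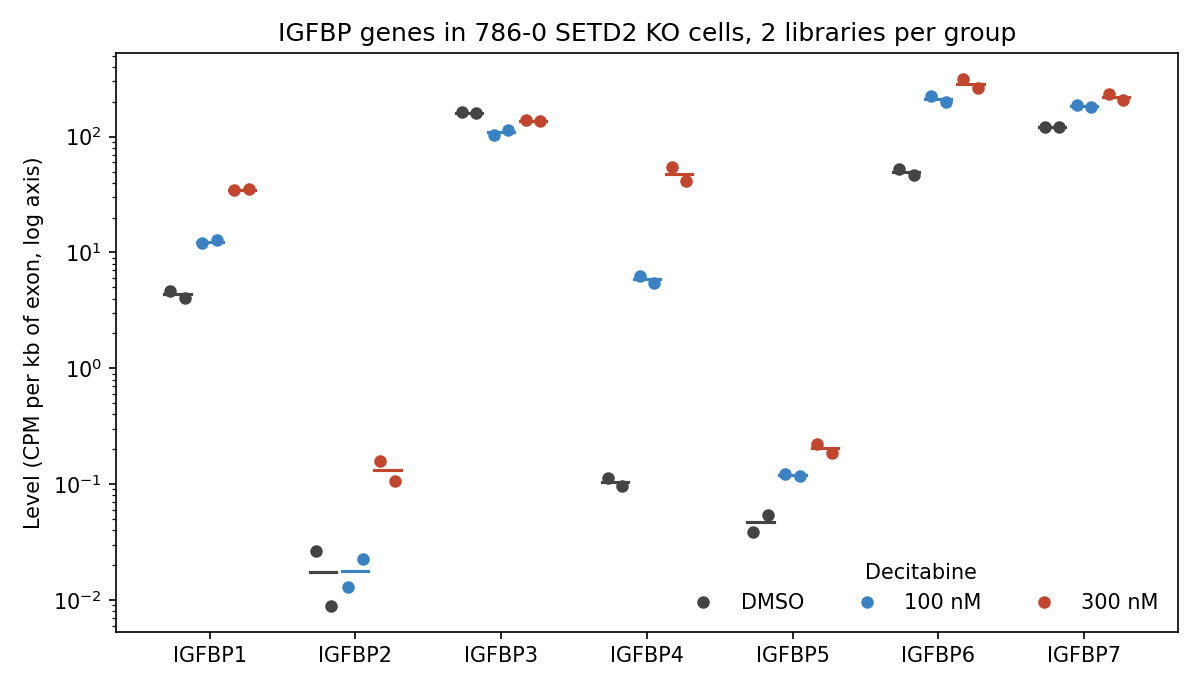
Level of each IGFBP gene in CPM per kb of exon, on a log axis, with a point for each library, a bar for the group mean and colours for DMSO, 100 nM and 300 nM. IGFBP4 climbs from 0.105 to 47.9, while IGFBP3 is lowest at 100 nM and IGFBP2 and IGFBP5 stay under 1.

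Per kb of exon, which allows genes to be compared, IGFBP3 was the highest member with DMSO at 161.1 CPM per kb, followed by IGFBP7 at 121.5 and IGFBP6 at 49.3. The others followed at 4.36 for IGFBP1, 0.105 for IGFBP4, 0.0466 for IGFBP5 and 0.0176 for IGFBP2. At 100 nM the order of the leading members was IGFBP6 at 211.1, IGFBP7 at 184.5 and IGFBP3 at 109.6. At 300 nM it was IGFBP6 at 287.5, IGFBP7 at 220.1 and IGFBP3 at 137.7, and IGFBP4 at 47.9 had passed IGFBP1 at 34.8. Neighbours in the order did not overlap between libraries in any group. IGFBP3 was thus the leading transcript of the family in control cells and ranked behind IGFBP6 and IGFBP7 at both doses with TMM scaling. This order depends on the scaling. When the DMSO levels are carried forward by fold changes corrected for exon length and GC content (a fit described after the family sums), IGFBP3, IGFBP6 and IGFBP7 come to 105.3, 107.6 and 131.0 CPM per kb at 100 nM and to 122.3, 90.4 and 120.0 at 300 nM.

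The summed level of the 7 genes was 341.7 and 331.1 CPM per kb in the DMSO libraries, 536.2 and 511.1 in those at 100 nM, and 773.6 and 682.9 in those at 300 nM. IGFBP3 gave 47.5% and 48.3% of this sum in the DMSO libraries, 19.4% and 22.5% in those at 100 nM, and 18.1% and 19.9% in those at 300 nM. IGFBP6 gave 15.3% and 14.0% under DMSO, rising to 41.8% and 38.8% under 100 nM, with 40.4% and 38.4% under 300 nM. With TMM scaling IGFBP6 thus exceeded IGFBP3 in all treated libraries and in neither DMSO library, whereas by the corrected fold changes it was level with IGFBP3 at 100 nM and below it at 300 nM. IGFBP4 held 0.0332% and 0.0292% with DMSO and 7.06% and 6.02% at 300 nM. IGFBP7 kept a steadier share, from 36.5% in a DMSO library down to 29.9% in a 300 nM library.

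**Figure D2:**
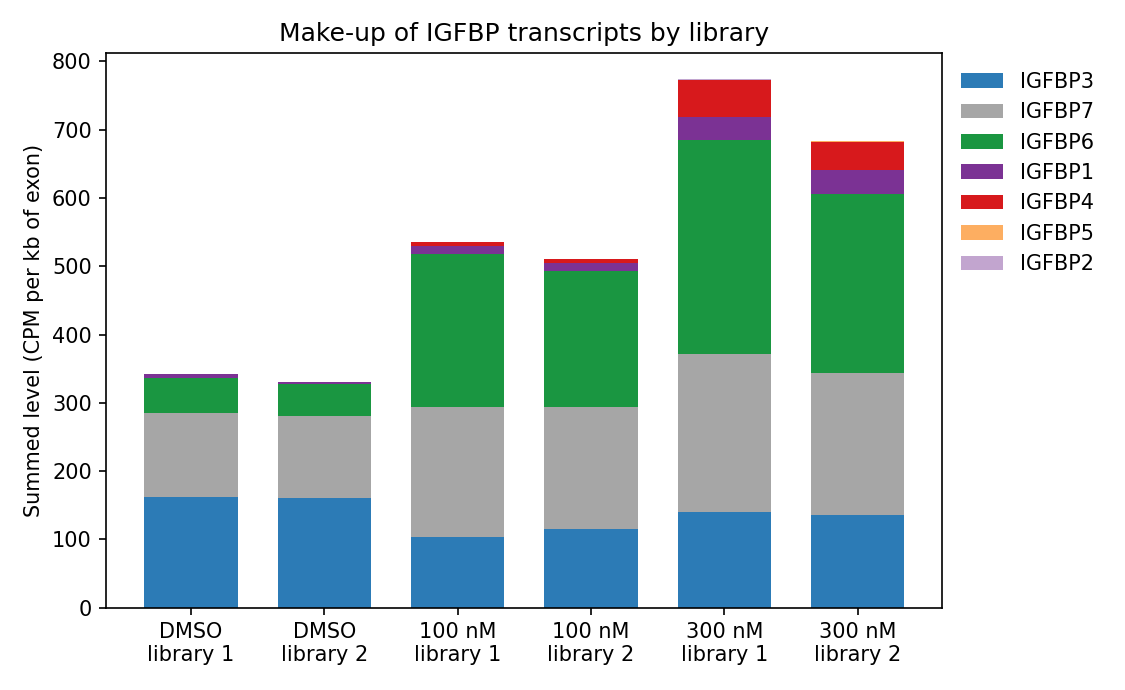
Stacked bars of the summed IGFBP level in CPM per kb of exon for each of the 6 libraries, coloured by gene. The bars grow from 331.1 at the lowest to 773.6 at the highest, and the IGFBP6 segment overtakes that of IGFBP3 in all treated libraries under this TMM scaling.

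Several members have short or GC-rich transcripts. IGFBP6 has 1.28 kb of exon, shorter than all but 1.99% of 12432 expressed protein-coding genes, and a GC content of 64.1%. IGFBP1, IGFBP7 and IGFBP4 have 1.65, 1.93 and 2.20 kb, where the median is 5.14 kb. Counts were therefore also fitted with offsets that remove the trend of each library with exon length and GC content, which would also remove any true response tied to them. The offsets lowered the median of all genes at 300 nM from 0.05 to -0.15.

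With these offsets, 4, 5 and 4 members were higher at 100 nM, at 300 nM and between the doses, and 1 was lower in each. Of all 23160 tested genes, this fit called 6704 higher and 7084 lower at 100 nM. It called 7669 higher and 9180 lower at 300 nM, and 4276 and 4991 between the doses. IGFBP4 kept log2 fold changes of 5.16 and 7.59 at 100 and 300 nM, and IGFBP1 kept 0.95 and 2.10. IGFBP6 rose by less and its step between the doses reversed, and IGFBP7 passed in none of the 3 comparisons, with the values given above. IGFBP3, which is close to the median in length and GC, was at -0.61 and -0.40. IGFBP2 and IGFBP5 at 300 nM were at 2.25 and 2.00. The rises of IGFBP1, IGFBP4, IGFBP5 and IGFBP6 over DMSO, and the decrease of IGFBP3, thus passed with TMM scaling and with the offsets. The rise of IGFBP7 passed only without the offsets. At 300 nM the decrease of IGFBP3 did not pass with DESeq2 size factors, so of its 2 decreases only that at 100 nM was stable.

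**Figure D3:**
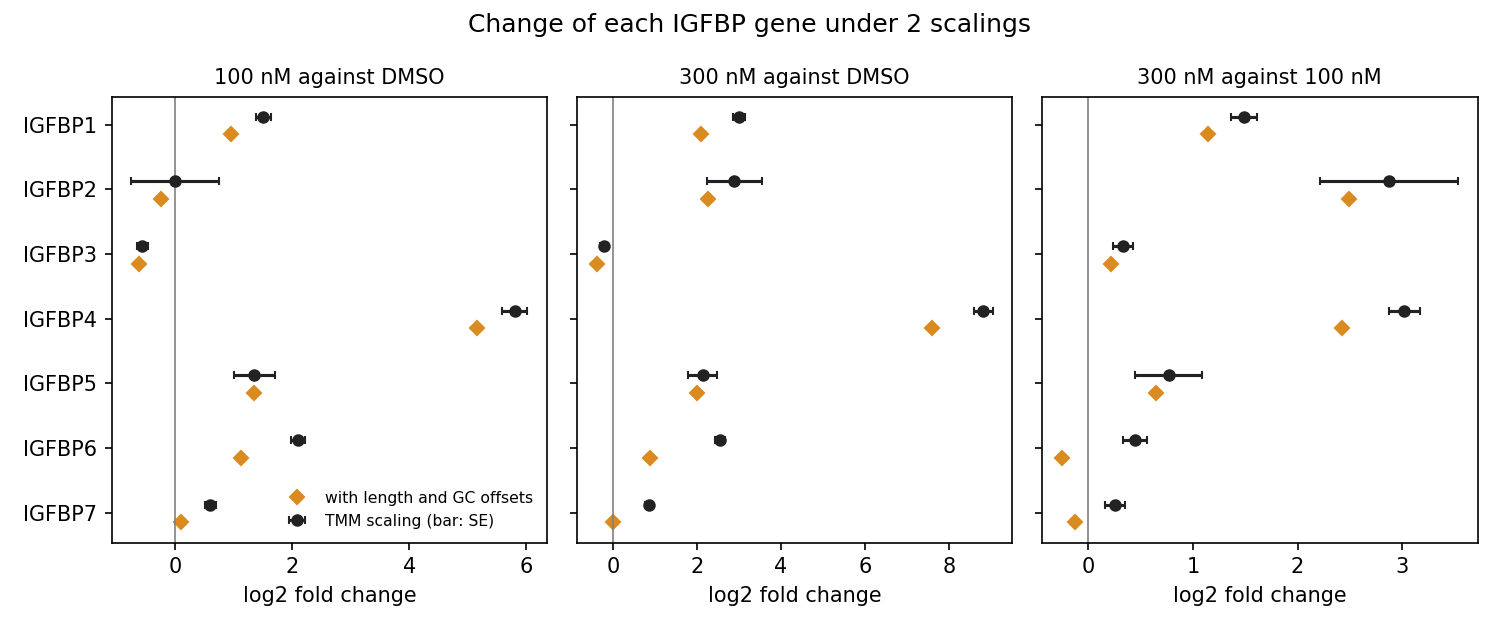
Log2 fold change of each IGFBP gene in the 3 comparisons, with black points for TMM scaling (bars are SE) and orange diamonds for the fit with length and GC offsets. The diamonds of IGFBP6 and IGFBP7 lie well to the left of their points, at 0.87 against 2.54 and at -0.02 against 0.86 for 300 nM.

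Some members are neighbours in the genome. IGFBP1 and IGFBP3 lie 18.6 kb apart on chromosome 7 and are transcribed toward each other, and IGFBP1 rose at both doses where IGFBP3 fell. IGFBP2 and IGFBP5 lie 7.67 kb apart on chromosome 2, also transcribed toward each other, and both rose at 300 nM, while at 100 nM only IGFBP5 passed. The difference between these genes was not tested. On either side of IGFBP4 lie TOP2A, a topoisomerase of dividing cells, and TNS4, a focal adhesion protein. TOP2A fell from 629.6 CPM with DMSO to 235.1 at 100 nM and 89.1 at 300 nM (log2 fold changes of -1.42 and -2.82). The fit with offsets gave -0.77 and -1.24 for TOP2A. TNS4 had 0 reads with DMSO, 72 at 100 nM and 690 at 300 nM over both libraries, at least 24.3-fold and 248.9-fold higher than 3 reads over the DMSO group. Beside IGFBP6, SPRYD3 rose from 41.0 to 52.9 and 85.2 CPM (0.37 and 1.06), and SOAT2, which esterifies cholesterol, had 0.30 and 0.93 at under 1 CPM (adjusted p = 0.54 and 0.028). NOA1 beside IGFBP7 had 0.05 (adjusted p = 0.75) and 0.30 (adjusted p = 0.034). RPL37A, a ribosomal protein beside IGFBP2, had 0.29 and 0.60. With the offsets SPRYD3 was at 0.02 and 0.29, while SOAT2 turned to -0.36 and -0.27 and NOA1 to -0.21 and -0.31, so the direction of the last 2 depends on the scaling.

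The growth factors themselves were at or under the limit of detection in the gene entries read here. IGF1 had 2 reads in the second 100 nM library, IGF2 had 2 in the second 300 nM library and INS had 2 in the first 300 nM library, and all other libraries had 0. The 2 reads of each gene may be a pair. Most exon bases of IGF1 (82.4%) and IGF2 (75.0%) are shared with other annotated genes and were left uncounted, so these counts cover only the rest of each gene. For IGF2 these other genes include another entry of the same name, whose counts are not given here. IGF1R, their signalling receptor, was at 70.9 ± 0.261, 62.4 ± 1.97 and 91.1 ± 1.75 CPM (SD, n = 2), with log2 fold changes of -0.18 (adjusted p = 0.17) and 0.36 (adjusted p = 0.0055). IGF2R, which clears IGF2, fell from 735 ± 19.6 to 553 ± 23.2 and 386 ± 4.66 CPM (-0.41 and -0.93), and with the offsets the value at 100 nM was -0.05 (adjusted p = 0.40). INSR stayed under 0.4 CPM and did not pass at either dose. IGFALS, which forms the ternary complex with IGFBP3 or IGFBP5 in blood, passed at 300 nM alone, from 0.347 ± 0.0689 to 0.912 ± 0.453 CPM (1.39, adjusted p = 0.011), and with the offsets had an adjusted p of 0.34.

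Further genes were counted over 9 lists, 8 from this system and 1 of the similarly named IGF2 mRNA-binding proteins, which have another function. Of their 57 genes 48 were tested, of which 19 were higher and 14 lower at 100 nM and 17 were higher and 20 lower at 300 nM. Over all tested genes, 24.0% were higher and 18.7% lower at 100 nM and 34.8% were higher and 31.1% lower at 300 nM, and the counts below are to be read beside these shares. The median log2 fold changes of the lists together were 0.09 and -0.04 with TMM scaling. The fit with offsets called 24 of them higher and 9 lower at 100 nM and 19 higher and 15 lower at 300 nM, with medians of 0.21 and 0.15. Counts with the offsets, here and below, are to be read beside the calls of that fit over all 23160 tested genes. Those were 6704 higher and 7084 lower at 100 nM, and 7669 higher and 9180 lower at 300 nM. Among 8 proteases of binding proteins and their inhibitors, 4 were higher and 2 lower at 100 nM, and 2 were higher and 2 lower at 300 nM, where 65.9% of all tested genes were called. STC2, an inhibitor of PAPPA, rose from 4.15 and 4.40 CPM with DMSO to 39.2 and 47.9 at 100 nM and 78.2 and 82.3 at 300 nM (3.35 and 4.23). PAPPA, the protease that cuts IGFBP4, was at 0.541, 0.524 and 0.628 CPM and did not pass. PAPPA2, which cuts IGFBP3 and IGFBP5, rose from 0.315 to 1.08 and 1.45 CPM (1.78 and 2.19). HTRA1, a serine protease that cuts IGFBP5, fell from 221 to 154 and 98.5 CPM (-0.52 and -1.17), and ADAM12, a metalloprotease of IGFBP3 and IGFBP5, fell from 63.7 to 30.4 and 23.9 CPM (-1.07 and -1.41).

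Of 11 other genes whose proteins carry an IGFBP-type domain, 7 were tested. At 100 nM 6 of them were higher and 1 lower, beside 24.0% and 18.7% of all tested genes, and at 300 nM 5 were higher and 1 lower, beside 34.8% and 31.1%. The lower gene was HTRA1, and both counts were the same with the offsets. Its paralogue HTRA3 rose from 0.229 and 0.287 CPM with DMSO to 17.5 and 15.9 at 100 nM and 34.2 and 26.5 at 300 nM (6.01 and 6.87). WISP2 (CCN5), of the matricellular CCN family, rose from 0.126 to 4.30 and 14.7 CPM (5.08 and 6.85). CTGF (CCN2), a target of YAP and of TGF-beta, rose from 10.5 to 30.7 and 71.4 CPM (1.55 and 2.77), and CYR61 (CCN1) from 172 to 287 and 492 CPM (0.74 and 1.52). KAZALD1 rose from 11.1 to 23.6 and 25.1 CPM (1.09 and 1.18).

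Below the receptor, IRS1 and IRS2, the docking proteins of IGF1R, moved apart. IRS1 was 67.2, 108 and 85.5 CPM (0.68 and 0.35), while IRS2 fell from 365 to 188 and 111 CPM (-0.96 and -1.71). Of 13 tested genes of the AKT branch, 7 were lower at 100 nM, beside 18.7% of all tested genes, and 10 were lower and 2 higher at 300 nM, beside 31.1% and 34.8%. PIK3R1, a regulatory subunit of the lipid kinase, fell from 36.3 to 11.0 and 4.63 CPM (-1.73 and -2.97), and AKT1 was higher at 300 nM (0.78). The offsets put PIK3R1 at -0.94 and -1.21, and AKT1 at 0.55 at 300 nM. With the length and GC offsets this branch had 3 higher and 2 lower at 100 nM and 3 higher and 5 lower at 300 nM.

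Among 6 surface partners of binding proteins, 4 were higher and 2 lower at 100 nM, beside 24.0% and 18.7% of all tested genes. At 300 nM 2 were higher and 4 lower, beside 34.8% and 31.1%. The offsets gave 5 and 1 at 100 nM and 1 and 3 at 300 nM. The integrin alpha chain ITGA5 rose from 355 to 643 and 821 CPM (0.86 and 1.21), while its partner ITGB1 fell from 1483 to 840 and 390 CPM (-0.82 and -1.93). With the offsets ITGA5 was at 0.83 and 1.02 and ITGB1 at -0.23 and -0.52. TMEM219, a receptor described for IGFBP3, rose from 58.8 to 97.9 and 118 CPM (0.74 and 1.00), and with the offsets only the value at 100 nM passed. The similarly named IGF2 mRNA-binding protein IGF2BP1, which is not a family member, rose from 0.0993 to 3.15 and 9.55 CPM (4.96 and 6.56).

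**Figure D4:**
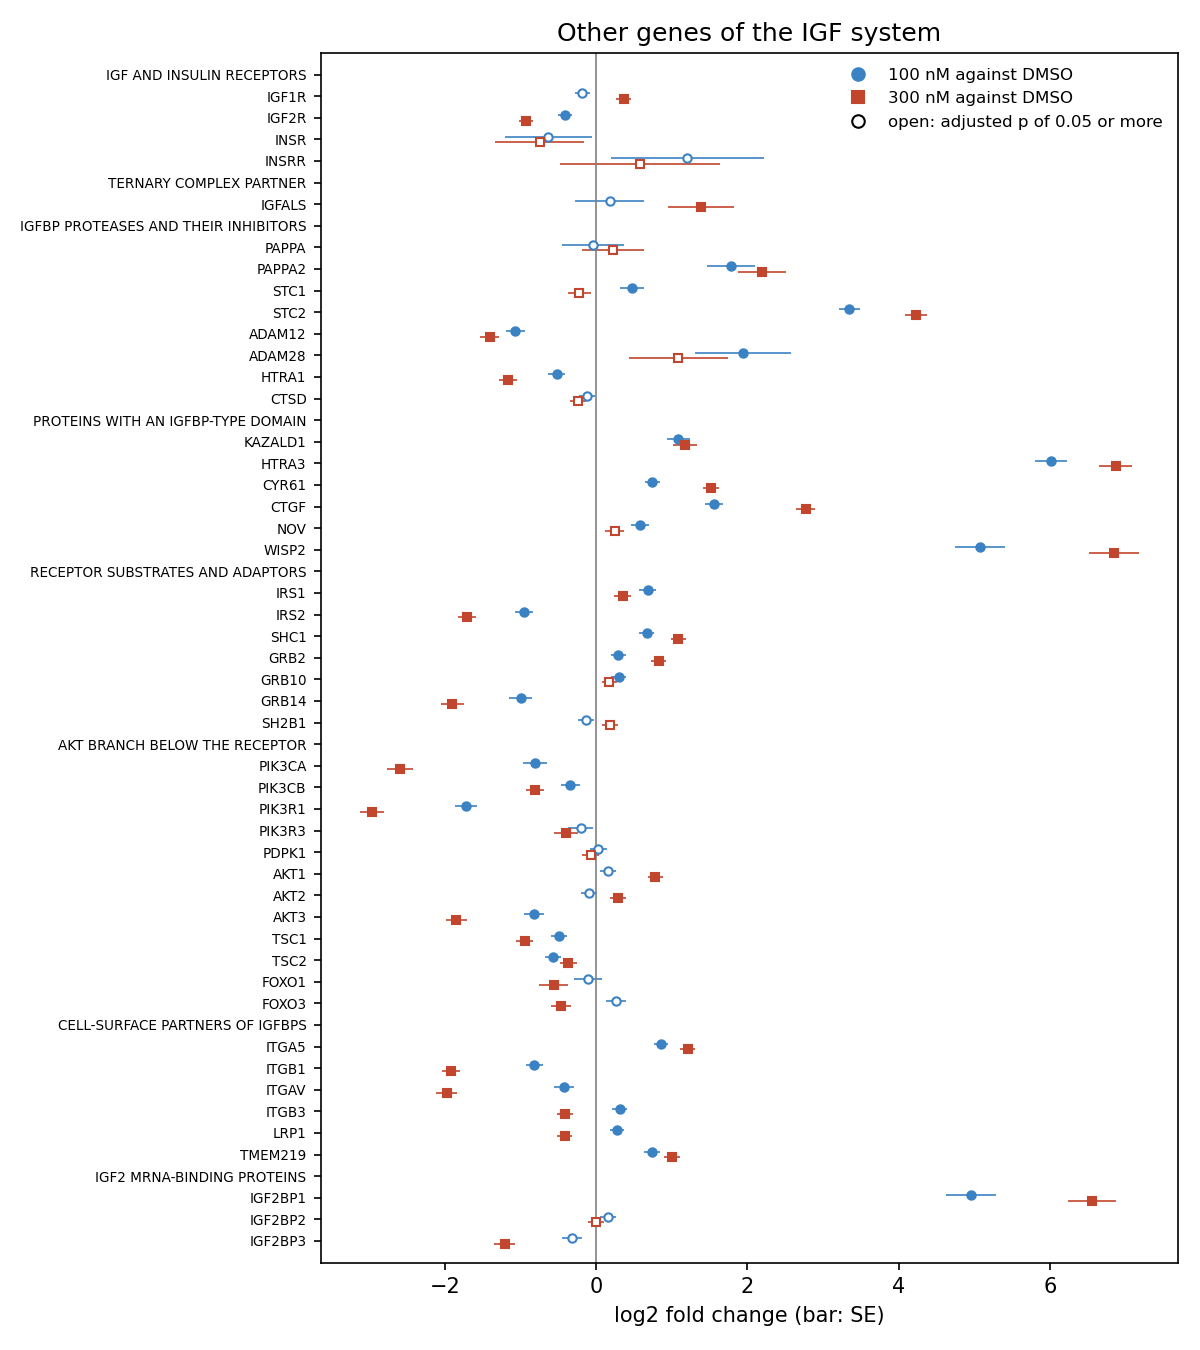
Log2 fold change of tested genes of the IGF system at 100 nM (blue circles) and 300 nM (red squares) against DMSO, grouped by role, with SE bars and open symbols where the adjusted p was 0.05 or more. HTRA3 at 6.87, WISP2 at 6.85 and IGF2BP1 at 6.56 lie farthest to the right at 300 nM, and PIK3R1 at -2.97 farthest to the left.

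The protein-coding genes most like each member were found by Euclidean distance between log2(CPM + 0.5) values, centred on each gene's mean over the 6 libraries, among genes of at least 1 CPM on average. All genes share the libraries and their scaling, and the pseudocount narrows changes of low genes. IGFBP4 was nearest to KRT7, a keratin of simple epithelia (distance 0.68), and to the tubulin TUBA3E (0.70). KRT7 went from 0.189 to 8.63 and 110.9 CPM and TUBA3E from 0.289 to 17.2 and 85.8 CPM. IGFBP1 was nearest to CITED4 (0.13) and KLHDC8B (0.16), and IGFBP6 to SH3BP1 (0.12) and MROH2A (0.16). IGFBP3 was nearest to the homeobox gene IRX5 (0.08) and the lipid transporter ABCA3 (0.09), at 12.1 and 17.4 CPM at 100 nM against 18.5 and 25.2 CPM with DMSO. With the offsets IRX5 was at -1.10 at 100 nM and -1.28 at 300 nM, so its likeness to IGFBP3 depends on the scaling. IGFBP7 was nearest to TMEM164 (0.08) and SNX21 (0.09). With the offsets TMEM164 was at 0.58 and 0.66 and SNX21 at 0.26 and 0.16, against 0.11 and -0.02 for IGFBP7. SH3BP1 was then at 2.41 and 2.53 and MROH2A at 2.78 and 3.04, against 1.12 and 0.87 for IGFBP6. The likeness of TMEM164, SH3BP1 and MROH2A to these members thus also depends on the scaling. Ranking by Pearson's correlation instead kept 1 of the 2 genes for IGFBP1 and IGFBP3 and neither for IGFBP4, IGFBP6 and IGFBP7.

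Genes of this family are also made by stroma, vessels and liver, so markers of those cells are given beside them. The 8 fibroblast markers summed to between 20.5 and 21.7 CPM with DMSO, between 888 and 921 at 100 nM and between 1014 and 1119 at 300 nM. None was at 0 reads, and 7 of 8 were higher at both doses, beside 24.0% and 34.8% of all tested genes. The 7 endothelial markers summed to at most 1.54, 2.49 and 5.45 CPM. Of 4 hepatocyte markers, ALB and TTR had 0 reads with DMSO and at 300 nM, and the sum went from between 25.1 and 26.5 CPM to between 107 and 125 at 300 nM. The 8 leukocyte markers summed to at most 5.11 CPM, with CD3E and CD2 at 0 reads with DMSO. The share of these changes in the IGFBP values was not tested. Of the 9 markers of 786-0 cells, 4 were higher and 3 lower at each dose. These marker counts are to be read beside the shares of all tested genes. Those were 24.0% higher and 18.7% lower at 100 nM, and 34.8% higher and 31.1% lower at 300 nM. The sum of the 786-0 markers went from between 3525 and 3585 CPM with DMSO to between 4904 and 5766 at 300 nM. The 3 lower markers were the renal transcription factor PAX8 at 254, 158 and 80.3 CPM, PAX2 at 24.0, 15.3 and 17.9 CPM, and CDH6. CDH6 fell from 169 to 37.2 and 20.3 CPM (-2.18 and -3.05, or -1.31 and -1.14 with the offsets). The epithelial keratin KRT8 was at 773, 1093 and 2079 CPM, and KRT18 was also higher at both doses. CA9 was higher at both doses too, but stayed low. It had 0 reads with DMSO, and 22 and 51 reads over both libraries at 100 and 300 nM (0.12 and 0.29 CPM).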

How the data were processed

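Per the file headers, the deposited counts are whole reads per gene, made by the authors with featureCounts 1.5.0-p3 on GENCODE 28 models, without strand, paired-end or overlap options, and were not normalized. The submitters' processing notes name STAR, SAMtools, DESeq2, hg19 and GRCh37. The coordinates in the files are GRCh38: all 56933 genes that share a versioned identifier with GENCODE 29 have the same coordinates there. The deposited matrix holds log2 values for 37599 genes, and how the authors made it is not given in the sources used here.

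All 6 libraries were fitted together with edgeR 4.0.16 (R 4.3.3; TMM factors, filterByExpr, group as the factor, 3 residual degrees of freedom), two-sided, at an adjusted p under 0.05. The script was tested on simulated data. Alternatives were DESeq2 1.42.0 and its size factors, no filter, only the groups compared, a replicate block, limma 3.58.1 on the deposited matrix, length and GC offsets (also with the block, chosen after seeing the data) and leaving out each library. Replicates varied beyond the counting error of independent reads: their chi-square per gene was 9.04 with DMSO, 24.4 at 100 nM and 44.0 at 300 nM. Reads that come in pairs also raise these values. Named genes were all members, all genes of the lists, the nearest protein-coding genes and the 2 most alike. Some listed genes are not reported here by name. Members and lists were chosen with earlier results of these data known.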

Additional observations from a re-analysis of the deposited data

How the results depend on the processing

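Over 14 alternatives each, the changes against DMSO of IGFBP1, IGFBP4, IGFBP5 and IGFBP6, of IGFBP2 at 300 nM and of IGFBP3 at 100 nM kept their direction and their side of the threshold. IGFBP4 ran from 4.96 to 5.92 at 100 nM and from 7.59 to 9.01 at 300 nM on the log2 scale, IGFBP1 from 0.95 to 1.62 and from 2.10 to 3.10, IGFBP6 from 1.12 to 2.19 and from 0.87 to 2.67, and IGFBP3 at 100 nM from -0.62 to -0.46.

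The 1 member called lower at 300 nM, IGFBP3, numbered 0 with DESeq2 size factors, with the DESeq2 test, without the low-count filter, with only the 2 groups compared and on the deposited log2 matrix, and 0 to 1 when a library was left out. Its adjusted p was 0.052 to 0.214 where lost. With the length and GC offsets, also with the replicate block, 1 member (IGFBP6) was lower at 300 than at 100 nM, at -0.25 in both fits. IGFBP7 with these offsets was at -0.017 at 300 nM and -0.13 between the doses in both fits. IGFBP2 at 100 nM, with a log2 value of 0.01, turned to -0.032 with DESeq2 size factors and -0.030 with the DESeq2 test, to -0.24 with the offsets and -0.18 with offsets and block, and ran from -0.56 to 0.97 when a library was left out (-0.56 without the second DMSO library, -0.44 without the second 100 nM library); none of these passed, and the cause was not tested. IGFBP5 between the doses passed with DESeq2 size factors (0.84, adjusted p = 0.040).

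Genes lower at 100 nM over the whole table numbered 7084 with the offsets and 7065 with offsets and block, against 4331, and 2883 to 5036 when a library was left out, with 2883 without the first 100 nM library. Genes higher at 300 than at 100 nM ran from 2896 (without the second 100 nM library) to 4901. Genes of the IGF lists lower at 100 nM numbered 9 with the offsets and with offsets and block, against 14. The replicate block kept 5 higher and 1 lower member at 100 nM, 6 and 1 at 300 nM and 6 and 0 between the doses; over the whole table it gave 6179 higher and 5140 lower at 100 nM. Deviations of same-numbered libraries correlated across 23160 genes at 0.121, 0.126 and 0.267, but with 2 numbers the libraries share only a number. By Pearson's correlation the genes most like IGFBP1 and IGFBP3 shared 1 of 2 with the distance measure, and those of IGFBP4, IGFBP6 and IGFBP7 shared 0. Depth limits IGFBP2 and IGFBP5, where the DMSO libraries hold 16 and 57 reads together. With 2 libraries per group, each group's spread rests on 1 difference.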
